A study of Mus musculus with 24 samples.

Results

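Nucleotide excision repair removes bulky DNA lesions, such as those made by ultraviolet light, and its RNAs were followed in mouse back skin across the day under timed feeding. The genes described here are 38 members of the pathway, chosen by name from the known repair machinery without Xpa, out of 29758 gene symbols with exon reads in the deposited table. They were grouped by step into 11 genes of damage recognition, 10 genes of the TFIIH complex, 6 genes of incision and 11 genes of gap filling. All 38 had a row and passed the filter on low counts, so each one was tested.

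The libraries came from whole back skin of male wild type C57BL/6NCrl mice, an inbred laboratory strain, aged 8 weeks and in the resting stage of the hair cycle (telogen). Lights were on for 12 h a day, and ZT is the number of hours since lights on. Food was open for 4 h a day, from ZT12 to ZT16 in the EN group, from ZT5 to ZT9 in the MD group and from ZT0 to ZT4 in the ED group, for 18 to 21 days. Each group had 8 libraries, with samples taken every 4 h over ZT0 to ZT28, so that ZT24 and ZT28 fell on the second day. RNA of 2 to 4 animals was pooled for each library. No group without restricted feeding was analysed here, so the comparisons are between the 3 feeding times.

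In this pathway, damage is found by separate routes. XPC and the DDB proteins survey the whole genome, while the CSB and CSA proteins act where RNA polymerase has stalled. Both routes load TFIIH, a general transcription factor whose helicases open the DNA. RPA then coats the undamaged strand, the XPG and ERCC1-XPF nucleases cut on either side of the lesion, and polymerases and ligases fill the gap. In skin the pathway is known as the main defence against sunlight damage, and loss of some of its genes causes xeroderma pigmentosum. Most of the gap filling genes also serve DNA replication in dividing cells.

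Libraries held 13222667 to 26316851 exon reads, with a mean of 17104698 in EN, 20098335 in MD and 16976565 in ED. Markers of keratinocytes, fibroblasts, fat, muscle, blood vessels and immune cells were detected, and of the blood list 2 of 5 genes had a row. Summed fibroblast markers (5 of 5 detected in every library) were at 40000 to 76400 CPM, counts scaled to library size, in EN, 26700 to 42100 CPM in MD and 41100 to 69200 CPM in ED. Summed fat markers, again 5 of 5, were at 1700 to 2890 CPM in EN, 812 to 1360 CPM in MD and 1500 to 2280 CPM in ED, so that MD did not overlap the other groups. Summed muscle markers averaged 12700 CPM in EN, 16500 CPM in MD and 10700 CPM in ED. Of the markers of hair shaft and anagen follicle, 7 of 8 had a row. Summed, they reached 2740 CPM in the EN ZT0 library and 997 CPM in the ED ZT24 library, against medians of 19.3 CPM in EN, 32.6 CPM in MD and 21.8 CPM in ED. In these markers both libraries thus went against the telogen label. Without both, 5 of 38 repair genes passed in MD minus ED, 14 in EN minus MD and 3 along the skin clock, in the tests described further on. With every library these counts were 6, 13 and 3 of 38, against 23%, 30.2% and 2.95% of all genes. The counts without both libraries are not set beside the calls over all genes in that fit. Each library also carries a code whose meaning the labels do not give. It is nearly nested in the feeding group, so that group and code cannot be told apart.

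The levels of the repair genes are given first as RPKM, a read density scaled to transcript length and sequencing depth, since this unit can be compared between genes. Their median over the 38 genes was 8.87 RPKM, and 8 genes averaged below 5 RPKM, 16 from 5 to 10, 9 from 10 to 20 and 5 above 20. Each mean below carries its SD over the 24 libraries. These SDs include the differences between feeding groups and times.

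Among the recognition genes, Ddb1, the adaptor of the CUL4 ubiquitin ligase, was the most abundant of the 38 at 117 ± 9.24 RPKM. Its partner in damage binding, Ddb2, was at 6.54 ± 0.898 RPKM. The ligase scaffolds Cul4a and Cul4b were at 29.5 ± 1.18 RPKM and 11.5 ± 0.676 RPKM. Xpc, the damage sensor of repair across the whole genome, was at 9.14 ± 1.04 RPKM. Of its binding partners, Rad23b was at 42.5 ± 3.4 RPKM and Cetn2 (centrin) at 8.8 ± 0.7 RPKM. The genes of transcription-coupled recognition were less abundant per length. Ercc6 (CSB) was at 5.6 ± 0.326 RPKM, Ercc8 (CSA) at 3.94 ± 0.537 RPKM and 4933407H18Rik, the table's older symbol of Uvssa, at 5.5 ± 0.703 RPKM. Hmgn1, a nucleosome binding protein that aids repair in chromatin, was second of the 38 at 68.7 ± 8.1 RPKM.

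The 10 TFIIH genes lay close together, between 4.88 and 17.7 RPKM. The helicase genes Ercc2 (XPD) and Ercc3 (XPB) were at 8.11 ± 0.613 and 10.9 ± 0.953 RPKM. Of the core subunits, Gtf2h1 was at 17.7 ± 1.43 RPKM, Gtf2h2 at 5.96 ± 0.538 RPKM, Gtf2h3 at 8.04 ± 0.867 RPKM, Gtf2h4 at 4.88 ± 0.774 RPKM and Gtf2h5, the small subunit that stabilises the complex, at 12.2 ± 1.51 RPKM. The kinase module, which phosphorylates RNA polymerase II, held Cdk7 at 9.52 ± 0.946 RPKM, Ccnh at 8.94 ± 1.01 RPKM and Mnat1 at 5.94 ± 0.587 RPKM.

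Of the incision genes, the nuclease genes Ercc1, Ercc4 (XPF) and Ercc5 (XPG) were at 9.95 ± 1.15, 4.01 ± 0.294 and 11.4 ± 0.882 RPKM. The subunits of RPA, which binds single-stranded DNA, were unequal, with Rpa1 at 16.9 ± 1.34 RPKM, Rpa2 at 5.9 ± 0.764 RPKM and Rpa3 at 3.65 ± 0.61 RPKM.

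Among the gap filling genes, Pcna, the sliding clamp, was highest at 34.9 ± 4.8 RPKM. The clamp loader genes were at 13.4 ± 0.903 RPKM (Rfc1), 9.49 ± 0.849 RPKM (Rfc2), 4.77 ± 0.747 RPKM (Rfc3), 3.08 ± 0.566 RPKM (Rfc4) and 5.58 ± 0.997 RPKM (Rfc5). The polymerase genes Pold1 and Pole were at 6.51 ± 0.705 and 2.16 ± 0.574 RPKM, and Pole was the least abundant of the 38. The ligase genes Lig1 and Lig3 were at 4.93 ± 0.965 and 13.9 ± 0.741 RPKM, and Xrcc1, the scaffold of ligase III, was at 12.5 ± 1.03 RPKM.

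**Figure D1:**
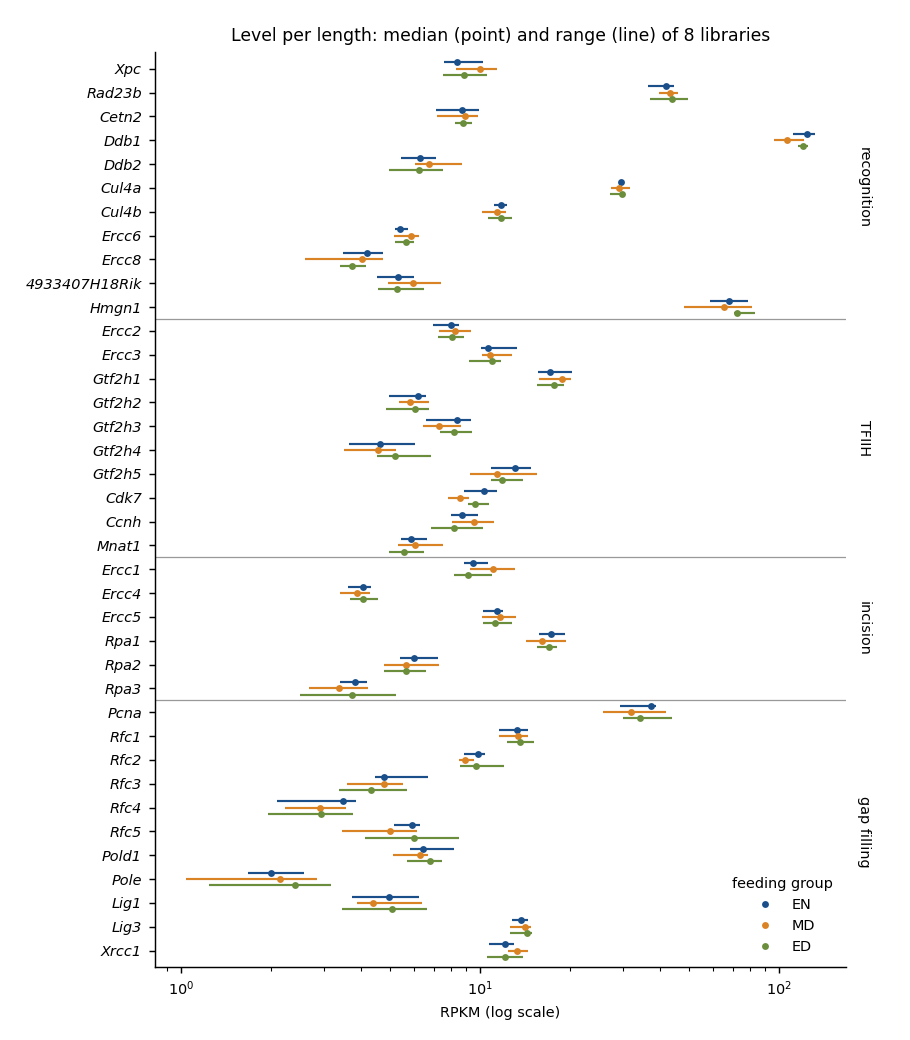
RPKM on a log scale (horizontal) of each of the 38 repair genes (vertical, by step) in the EN, MD and ED groups. Points are medians and lines the lowest to highest of 8 libraries, with Ddb1 at the top end (117 RPKM) and Pole at the low end (2.16 RPKM).

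For several of these genes, reads of the opposite strand were many. Antisense reads were 144% of the exon reads for Ddb2, 129% for Ercc2, 110% for Rfc5 and 72.7% for Ccnh, and 10 of the 38 genes were at or above 10%. The annotation places another gene on the opposite strand there, which is Acp2 at Ddb2, Klc3 and Gm26852 at Ercc2, Wsb2 at Rfc5 and Rasa1 at Ccnh. The kit keeps strand, but the labels and file headers do not say how the counting program used it. The levels of these 4 genes are thus less certain. With smaller shares, the same caution holds for the others of the 10. These were Rfc4 (47.2%), Ercc1 (33.5%), Cdk7 (19.8%), Ercc4 (19.5%), Ercc8 (10.9%) and Lig3 (10.5%). Values of Pcna are uncertain too where reads match its annotated pseudogenes.

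From library to library, most repair genes varied little. The SD of log2 CPM over the 24 libraries had a median of 0.17 over the 38 genes, against 0.222 over the 15719 genes tested. The repair genes and all genes were not matched for read count here. The step medians were 0.17 for recognition, 0.16 for TFIIH, 0.143 for incision and 0.273 for gap filling. A few libraries held most of the low ends. The MD ZT16 library was the lowest of the 24 for 9 genes, of which 5 were gap filling genes, and the MD ZT0 library was the lowest for 8 genes. In the MD ZT16 library, summed markers of DNA replication (26 genes, none of them a repair gene described here) were also at their lowest of the MD group, at 298 CPM, against a highest of 453 CPM at MD ZT8. The same clock times on the second day gave a measure of repeatability. The median absolute log2 change of the 38 genes was 0.109 in EN and 0.258 in MD and 0.197 in ED for ZT24 against ZT0, and 0.165 in EN, 0.0983 in MD and 0.16 in ED for ZT28 against ZT4. The widest change was that of Rpa3 in ED, at 1.34 for ZT24 against ZT0. What the MD ZT16 library's replication level has to do with the low gap filling values there was not tested.

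**Figure D2:**
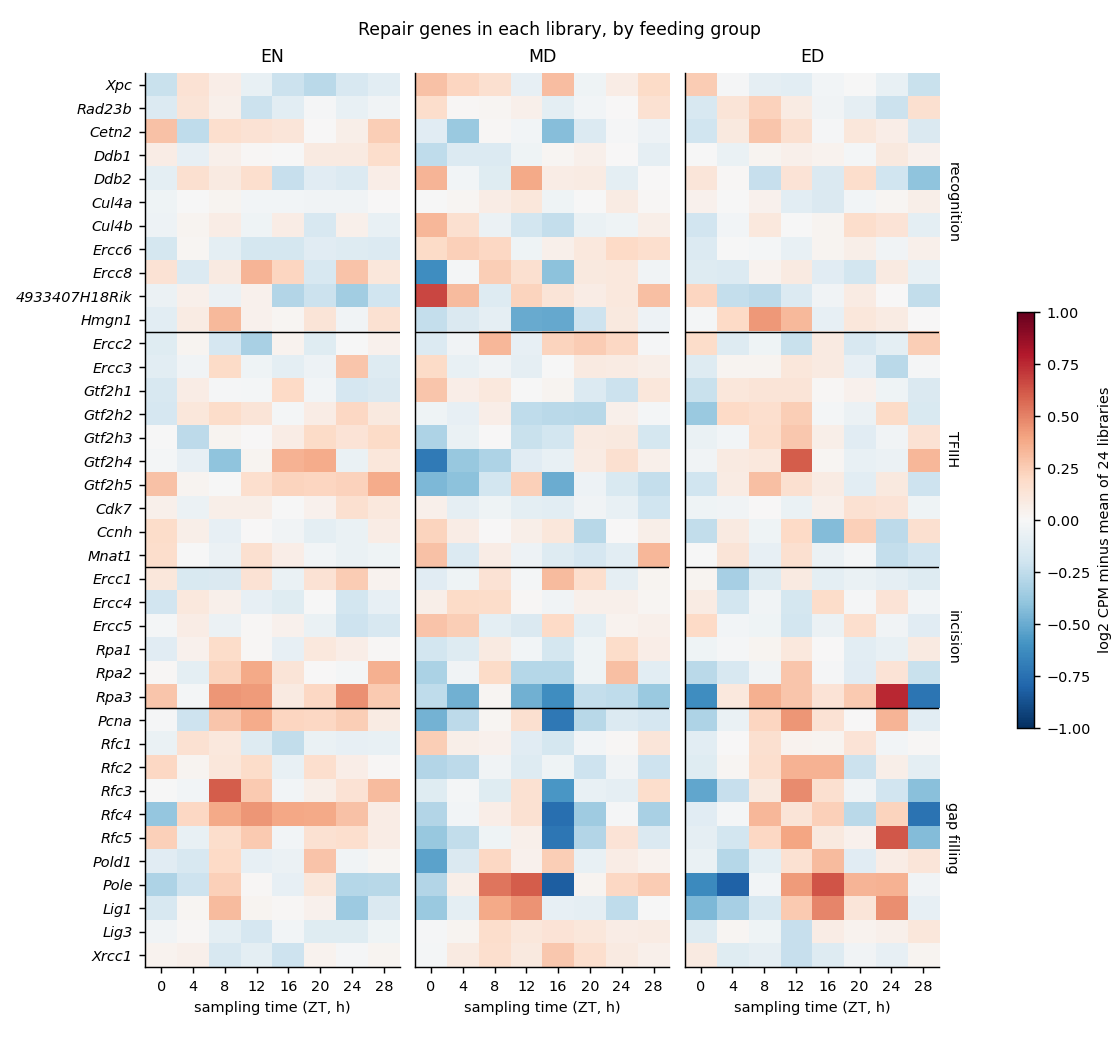
Log2 CPM of each gene minus its mean over the 24 libraries (colour), for the 38 repair genes (rows, by step) at the 8 sampling times (columns, ZT in hours) of the EN, MD and ED groups. The widest swings are those of Pole and Rpa3 (SD of log2 CPM of 0.402 and 0.394) and the narrowest that of Cul4a (0.0569), with low values of Pcna, Rfc3, Rfc4, Rfc5 and Pole at MD ZT16.

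The question of whether repair genes follow the day was addressed first within each feeding group, with a cosine curve of 24 h in every group. An edgeR quasi-likelihood test with Benjamini-Hochberg adjustment over all genes tested found no repair gene with a rhythm at an adjusted p below 0.05. In EN, 0 of 38 passed, while 1.06% of all genes passed, and 0 had an unadjusted p below 0.05, against 10.8% of all genes. In MD, 0 of 38 passed, against 0.942% of all genes, with 4 at the unadjusted level, against 15.7%. In ED, 0 of 38 passed, against 0.719% of all genes, with 5 at the unadjusted level, against 14.9%. DESeq2 called 0 of 38 in EN, 0 in MD and 2 in ED, namely Rad23b and Rfc3. These DESeq2 counts are not set beside its calls over all genes. Along the skin clock, described below, DESeq2 called more of all genes than edgeR did.

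Amplitudes, from mean to peak on the log2 scale, were small. Their median over the repair genes was 0.0795 in EN, 0.108 in MD and 0.138 in ED, against 0.131, 0.149 and 0.154 over all genes in EN, MD and ED. Read counts were not matched in this comparison either. The upper end of the 95% region of the amplitude was below 0.5 for 34 of 38 genes in EN, 31 in MD and 30 in ED. These genes could thus hold a rhythm of smaller size that was not detectable with 8 libraries. Gap filling genes had the highest median amplitude of the 4 steps, with 0.127 in EN, 0.184 in MD and 0.2 in ED. Among them Pole, the catalytic subunit of polymerase epsilon, had the highest amplitude in MD, at 0.408, and in ED, at 0.515.

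The rhythm did not pass the test of a difference between feeding groups for any repair gene. In MD minus ED, 0 of 38 were called, against 0.35% of all genes (7 unadjusted, against 11.7% of all genes). In EN minus ED, 0 were called, against 0.401% (4 unadjusted, against 11.6%). In EN minus MD, 0 were called, against 0.35% (1 unadjusted, against 12.7%). DESeq2 likewise called 0 of 38 in each of these pairs.

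Since single groups give few libraries, a rhythm shared by the 3 groups was tested along 3 time axes, which are ZT, the hours since food was opened, and the time of the skin's own clock. For the last, ZT was shifted in each group by the mean difference in peak time of 8 clock genes from the ED group, which was -3.31 h in EN and -7.72 h in MD. Along ZT, 0 of 38 repair genes passed, against 0.668% of all genes (4 unadjusted, against 14.7%). Along food time, 0 of 38 passed, against 1.29% of all genes (1 unadjusted, against 15.6%). In DESeq2 the counts along these 2 axes were also 0 of 38. Without ED ZT24, 1 repair gene passed along ZT, which was Lig1, and 107 of all genes.

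Along the skin clock, 3 of 38 genes passed, or 7.89%, against 2.95% of all genes, and 10 had an unadjusted p below 0.05, against 19.1% of all genes. The 3 genes were Rfc3 and Lig1 of gap filling and Hmgn1 of recognition. Counts this small moved with single libraries. Over the 24 fits that each left out 1 library, 0 to 4 repair genes passed, with 0 when ED ZT12 or EN ZT8 was left out. Of all genes, 341 passed without ED ZT12 and 326 without EN ZT8. Without the second day 0 passed, and 131 of all genes. In DESeq2 6 passed, and 969 of all 15719 genes, against the 463 of the edgeR test. Genes of cell division also gave calls in the same test. Of 25 mitosis genes 12 passed, with 24 at the unadjusted level. Of 26 DNA replication genes 1 passed (Mcm6), with 17 at the unadjusted level. Along ZT, where 0 of 38 repair genes passed, more mitosis genes passed, 18 of 25 (23 unadjusted), against 0.668% of all genes. DNA replication genes gave 0 of 26 along ZT (5 unadjusted). The part of these lists in the repair gene calls was not tested.

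Rfc3, a subunit of the clamp loader, had its lowest, median and highest value at 8.17, 8.94 and 12.7 CPM in EN, at 5.58, 7.88 and 9.43 CPM in MD and at 5.8, 7.71 and 11.6 CPM in ED. It was highest at ZT8 in EN, at ZT28 in MD and at ZT12 in ED. Its amplitude along the skin clock was 0.26 ± 0.054 (log2, SE), with a peak at 12.8 ± 0.782 h of the ED clock and an adjusted p of 0.0229. That is a peak to trough ratio of 1.44. The adjusted p was 0.0614 without MD ZT16, 0.0835 without ED ZT12 and 0.0732 without EN ZT8, and it stayed below 0.05 without any of the other 21 libraries.

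Lig1, the ligase of replicative DNA synthesis, ranged from 10.6 to 17 CPM in EN, from 10.6 to 18.7 CPM in MD and from 10 to 19.2 CPM in ED, with medians of 13.9, 12.9 and 13.9 CPM in EN, MD and ED. It was highest at ZT8 in EN, at ZT12 in MD and at ZT16 in ED. The amplitude was 0.26 ± 0.064 along the skin clock, with a peak at 16.8 ± 0.952 h and an adjusted p of 0.0421. It passed in 9 of 24 fits that left out a library, over which the adjusted p ran from 0.0149 to 0.0797. Those 9 left out MD ZT4, MD ZT20, ED ZT0, ED ZT20, ED ZT24, ED ZT28, EN ZT4, EN ZT12 or EN ZT16.

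Hmgn1 had a lowest, median and highest value of 110, 124 and 148 CPM in EN, of 83.2, 105 and 127 CPM in MD and of 112, 127 and 160 CPM in ED. Its amplitude was 0.17 ± 0.039, with a peak at 10.2 ± 0.892 h and an adjusted p of 0.0422. It passed in 8 of 24 fits that left out a library, with adjusted p from 0.0196 to 0.114. Those 8 left out MD ZT0, MD ZT8, ED ZT16, ED ZT20, ED ZT24, ED ZT28, EN ZT4 or EN ZT20. It was also lost in 5 of 7 other alternatives, among them the fit without ED ZT24 and EN ZT0 (adjusted p of 0.0613).

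Pole fell just short, with the widest curve of the 4 genes plotted. It had 11.1, 12.5 and 16.3 CPM in EN, 7.79, 15.1 and 20.9 CPM in MD and 7.84, 15.5 and 21.3 CPM in ED as lowest, median and highest value. Its amplitude was 0.37 ± 0.097, with a peak at 15.4 ± 1.02 h and an adjusted p of 0.052. It passed with RLE scaling (0.0498), in DESeq2 (0.00949), with no filter on low counts (0.0432) and without ED ZT24 and EN ZT0 (0.0442). On log2 RPKM with limma and without the second day it did not pass. Of the fits that left out a single library, it passed only in those without MD ZT16, MD ZT20, ED ZT24 or EN ZT20. The intron reads of the same libraries, a readout of unspliced RNA, were then tested in the same way.

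**Figure D3:**
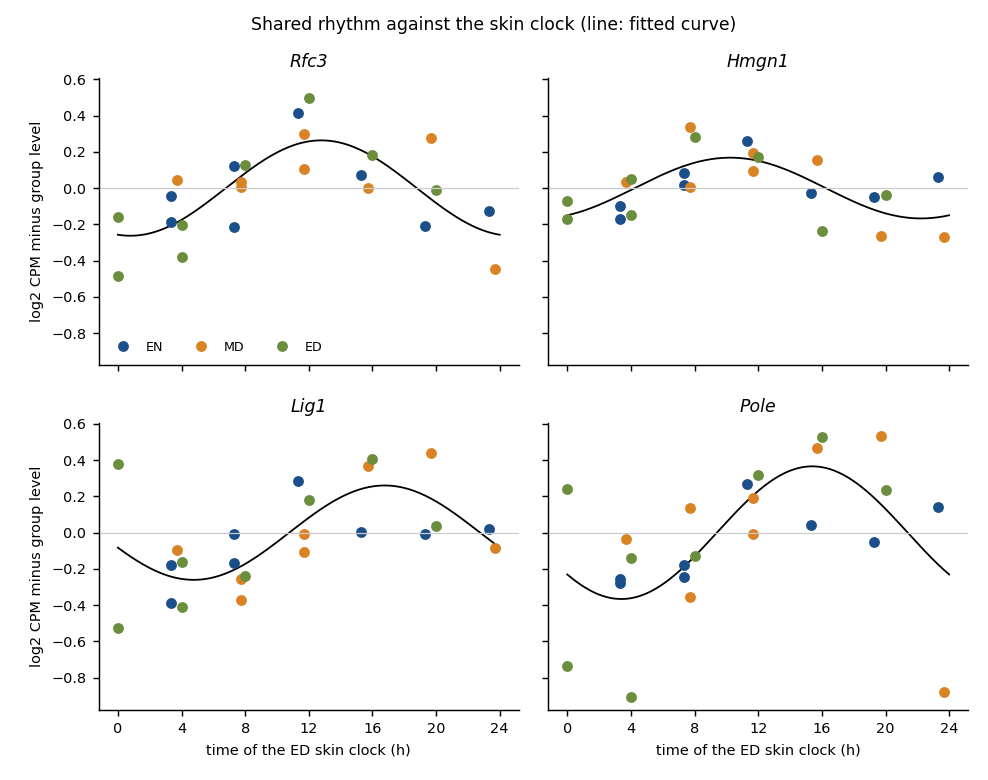
Log2 CPM minus the fitted group level (vertical) against the time of the ED skin clock in hours (horizontal) for Rfc3, Hmgn1, Lig1 and Pole. Each point is a library of EN, MD or ED and the line is the shared fitted curve, with peaks between 10.2 h (Hmgn1) and 16.8 h (Lig1).

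In intron reads, 0 of 38 repair genes passed along ZT, against 0.37% of all 14585 genes tested (2 unadjusted, against 12%). Along food time 0 passed, against 0.322% of all genes (1 unadjusted, against 12.8%). Along the skin clock 2 passed, against 4.35% of all genes, so that their share of 5.26% was near that of all genes. Along ZT, DESeq2 called 1 intron signal, that of Pole, and along food time it called 0. Leaving out MD ZT16 or MD ZT24 also gave 1 call along ZT.

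The 2 genes were Pole and Gtf2h1. Pole introns had an amplitude of 0.40 ± 0.076, a peak at 13.3 h and an adjusted p of 0.00869, which stayed below 0.05 without any 1 of the 24 libraries. Gtf2h1, a core subunit of TFIIH, had an intron amplitude of 0.13 ± 0.024, a peak at 12.3 h and an adjusted p of 0.0202. This Gtf2h1 call passed in 3 of 7 other alternatives. It was lost without ED ZT24 and EN ZT0 (adjusted p of 0.0654), without the second day and on log2 RPKM with limma at either pseudocount. The exon reads of Gtf2h1 did not pass, with an amplitude of 0.09 ± 0.037 and an adjusted p of 0.366. Lig1 introns had an amplitude of 0.28 ± 0.072, a peak at 13.4 h and an adjusted p of 0.0502. The intron reads of Rfc3 and Hmgn1 did not pass, with adjusted p-values of 0.756 and 0.774.

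For the steps without a call in this test, the 2 genes with the smallest p stood as follows. In TFIIH, Gtf2h2, another core subunit, ranged from 8.93 to 11.6 CPM in EN, from 8.3 to 10.5 CPM in MD and from 7.78 to 11.9 CPM in ED. It had an amplitude of 0.13 ± 0.041 along the skin clock (adjusted p of 0.246) and Gtf2h5 one of 0.12 ± 0.052 along food time (adjusted p of 0.34). In incision, Rpa2 ranged from 10.4 to 14.5 CPM in EN, from 8.94 to 13.8 CPM in MD and from 9.25 to 13.5 CPM in ED, and Ercc5 from 33.4 to 40.7 CPM in EN, from 35 to 47.2 CPM in MD and from 34 to 44.3 CPM in ED. The groups overlap for these genes. Rpa2 had an amplitude of 0.14 ± 0.051 along the skin clock (adjusted p of 0.237) and Ercc5 one of 0.09 ± 0.037 along food time (adjusted p of 0.395). In recognition, besides Hmgn1, the smallest p was that of 4933407H18Rik along food time, with an amplitude of 0.16 ± 0.047 and an adjusted p of 0.149.

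Because Rfc3, Lig1 and Hmgn1 in exon reads and Gtf2h1 in intron reads passed along the skin clock, their promoter windows are shown. The sequences are those of RefSeq on GRCm38.p6, from 250 bases before to 50 bases after an annotated start, 5′ to 3′ on the gene's strand. Capitals mark an E-box (CACGTG), which clock factors are known to bind, or an E2F motif (TTTCCCGC or TTTGGCGC, either strand), known from genes of DNA replication. Positions count from 1 at the start. Rfc3 lies at chr5:151651159-151651458 (minus strand), with an E2F motif from position 1. Gtf2h1 lies at chr7:46795844-46796143 (plus strand), with E-boxes from positions -26 and 10. The Lig1 window with a match is the most upstream of 3, at chr7:13276925-13277224 (plus strand), with an E-box from position 37. The Hmgn1 window, at chr16:96127676-96127975 (minus strand), has no match to either.
Rfc3: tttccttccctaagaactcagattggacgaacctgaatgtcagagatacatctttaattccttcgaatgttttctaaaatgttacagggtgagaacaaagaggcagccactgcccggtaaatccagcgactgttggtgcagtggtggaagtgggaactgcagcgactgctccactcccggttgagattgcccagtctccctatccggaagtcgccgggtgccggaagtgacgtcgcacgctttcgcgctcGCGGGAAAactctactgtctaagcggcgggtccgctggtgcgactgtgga
Gtf2h1: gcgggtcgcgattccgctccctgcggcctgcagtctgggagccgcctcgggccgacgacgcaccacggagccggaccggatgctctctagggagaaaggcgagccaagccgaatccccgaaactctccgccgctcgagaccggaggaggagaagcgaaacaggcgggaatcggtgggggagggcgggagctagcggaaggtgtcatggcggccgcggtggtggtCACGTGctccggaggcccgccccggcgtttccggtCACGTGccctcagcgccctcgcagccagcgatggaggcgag
Lig1: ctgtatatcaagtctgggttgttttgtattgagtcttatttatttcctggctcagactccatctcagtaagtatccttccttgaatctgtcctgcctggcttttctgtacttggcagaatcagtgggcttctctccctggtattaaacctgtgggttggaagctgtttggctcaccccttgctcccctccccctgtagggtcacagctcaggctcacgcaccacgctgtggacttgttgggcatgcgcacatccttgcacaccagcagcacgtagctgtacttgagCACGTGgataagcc
Hmgn1: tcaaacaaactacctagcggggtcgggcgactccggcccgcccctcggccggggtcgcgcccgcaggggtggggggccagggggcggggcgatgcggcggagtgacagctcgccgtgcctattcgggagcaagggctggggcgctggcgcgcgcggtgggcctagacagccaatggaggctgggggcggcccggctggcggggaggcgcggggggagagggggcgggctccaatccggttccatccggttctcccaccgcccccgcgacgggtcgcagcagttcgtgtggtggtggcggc

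Windows were found for 32 of the 38 genes, 35 windows in all, with the letters read on both strands. The E-box was in 10 of 35 windows (28.6%), against 7.15% of all 32851 windows and 9.38% of the 13688 windows of genes tested here. The genes were Cdk7, Ercc6, Ercc8, Gtf2h1, Gtf2h5, Lig1, Lig3, Rfc1 and Rpa1, and both windows of Gtf2h5 hold the same site. The D-box (TTATGTAA), another motif of clock output, was in 0 of 35 windows, in 0.938% of all windows and in 0.563% of those of genes tested. The E2F motifs were in 2 of 35 windows (Rfc3 and Pold1, 5.71%), against 1.56% of all windows and 2.62% of those of genes tested. The CCAAT box (CCAAT) was in 16 of 35 windows (45.7%), against 37.4% of all windows and 37.1% of those of genes tested. The repair windows were richer in G and C, with a median of 64.3%, against 52.7% in all windows and 60% in those of genes tested, and the part of this in the E-box share was not tested. Of the 9 genes with an E-box, Lig1 was the one called along the skin clock in exon reads, and Gtf2h1 the one called in intron reads.

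Whether the meal itself moves repair genes was addressed by setting the 7 libraries sampled 3 to 8 h into the feeding cycle against the 9 sampled 19 to 24 h into it, within a model of feeding group and clock time. In this contrast 0 of 38 passed, against 4.85% of all genes (4 unadjusted, against 22%). DESeq2 called 1, which was 4933407H18Rik. This gene, whose product brings TFIIH to stalled polymerase, averaged 32.9 ± 4.52 CPM after food and 42.2 ± 7.01 CPM before food (SD). Its log2 difference, after minus before food, was -0.29 ± 0.087 (SE) with an adjusted p of 0.0545. Leaving out MD ZT0, MD ZT24 or ED ZT24 brought the count to 1, with this gene each time. Of all genes, 1038, 923 and 818 passed in these fits, against 762 with every library.

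Xpc was the next, at 26.8 ± 2.84 CPM after food and 30.9 ± 2.97 CPM before food, with a log2 difference of -0.22 ± 0.068 and an adjusted p of 0.0899. The median log2 difference was -0.03 over the 38 genes and 0.00 over all genes. Xpa, the damage verifying protein's gene outside this list, had 6.52 ± 1.45 CPM after food and 8.61 ± 2.04 CPM before food, with a log2 difference of -0.40 ± 0.17 and an adjusted p of 0.141.

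The level over the whole day was the measure in which feeding groups differed. In EN minus MD, 13 of 38 repair genes passed (34.2%), 8 higher and 5 lower in EN, against 30.2% of all genes (15.9% higher, 14.4% lower). In MD minus ED, 6 of 38 passed (15.8%), 2 higher and 4 lower in MD, against 23% of all genes (11.2% higher, 11.8% lower). In EN minus ED, 0 of 38 passed, as did 0% of all genes (1 unadjusted, against 6.11%), and DESeq2 called 0 of 38. These shares were near or below those of all genes. The comparisons with MD share the MD libraries and are thus not independent of each other. In whole skin, fewer cells of a type and less RNA per cell cannot be told apart, and the lower fibroblast and fat markers of MD move with these differences. The MD libraries were also the deepest on average, and intron reads were 35% of gene reads in EN, 38.8% in MD and 37.3% in ED. The part of any of these in the differences was not tested. Without MD ZT16, 3 of 38 passed in MD minus ED, and 1981 of all genes, against 3608 of all genes with every library.

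The SE of each log2 difference below comes from the same curve fits. In recognition, 5 genes differed between EN and MD. Hmgn1 averaged 125 ± 11.6 CPM in EN, 104 ± 14.9 CPM in MD and 131 ± 16.5 CPM in ED (SD, n = 8 each), with MD lowest. It was higher in EN than in MD by 0.33 ± 0.071 (adjusted p of 0.00128), at 7 of 8 times, and lower in MD than in ED by -0.40 ± 0.071 (adjusted p of 0.000511), at 7 of 8 times. Both calls stayed in each of the 24 fits that left out a library. The ranges of the groups overlap.

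Ercc6, the CSB helicase that recognises stalled polymerase, was at 40.4, 41.7 and 46.4 CPM in EN, 44.3, 51.7 and 53.9 CPM in MD and 41.6, 45.3 and 47.6 CPM in ED as lowest, median and highest value. EN was below MD at 8 of 8 times, by -0.25 ± 0.034 (adjusted p of 0.000676), although intron reads gave a difference of the other sign, 0.05 with an adjusted p of 0.483. 4933407H18Rik was at 28.8, 33.6 and 38 CPM in EN, 33.5, 41.5 and 58.2 CPM in MD and 30.6, 34.5 and 42.6 CPM in ED. MD was thus above both other groups, by 0.26 ± 0.090 against ED (adjusted p of 0.0246) and with EN minus MD at -0.32 ± 0.090 (adjusted p of 0.00703). The call in MD minus ED was lost without MD ZT12 (adjusted p of 0.112), MD ZT16 (0.0709), ED ZT16 (0.0643) or ED ZT20 (0.0505).

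Xpc was at 23.8, 26.1 and 31.6 CPM in EN, 27.1, 32.4 and 35.4 CPM in MD and 24.6, 27.7 and 34.1 CPM in ED. EN minus MD was -0.24 ± 0.069 (adjusted p of 0.013), and without MD ZT16 it was -0.16 (adjusted p of 0.114). Cetn2 was at 11.7, 15.2 and 17 CPM in EN, 10.4, 13.1 and 14 CPM in MD and 12.1, 14.7 and 16.9 CPM in ED. EN minus MD was 0.25 ± 0.094 (adjusted p of 0.0481), but the sign turned in RPKM (-0.02) and in intron reads (-0.29). This call passed in 5 of 24 fits that left out a library, over which the adjusted p ran from 0.0148 to 0.217. Those 5 left out MD ZT8, MD ZT12, MD ZT24, ED ZT28 or EN ZT4. The other 6 recognition genes, Rad23b, Ddb1, Ddb2, Cul4a, Cul4b and Ercc8, passed in no pair, and their EN minus MD differences ran from -0.11 to 0.18.

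In TFIIH, Gtf2h5 alone of the 10 genes passed. It was at 20.5, 24 and 26.7 CPM in EN, 14.6, 17.8 and 24.3 CPM in MD and 17.8, 21.8 and 25.4 CPM in ED. EN was above MD by 0.37 ± 0.099 (adjusted p of 0.0065), at 7 of 8 times. In incision, Rpa3, the smallest RPA subunit, passed in both pairs with MD. It was at 5.71, 6.98 and 7.94 CPM in EN, 3.77, 4.67 and 5.87 CPM in MD and 3.5, 6.66 and 9.74 CPM in ED.

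Rpa3 was higher in EN than in MD by 0.61 ± 0.18, the widest of the 38 differences in that pair, with an adjusted p of 0.00944 and 8 of 8 times higher. On log2 (RPKM + 0.1) this difference was 0.20 (adjusted p of 0.314), and in intron reads it was 0.06 (adjusted p of 0.862). In MD minus ED it was -0.46 ± 0.18 (adjusted p of 0.041), a call that 14 of 24 fits without a library kept. The adjusted p over those fits ran from 0.0122 to 0.148. The call was lost without MD ZT0, MD ZT4, MD ZT12, MD ZT16, MD ZT28, ED ZT4, ED ZT8, ED ZT12, ED ZT20 or ED ZT24. Rpa3 had 60 to 174 exon reads per library, which limits its precision. The nuclease genes Ercc1, Ercc4 and Ercc5 and the other RPA genes Rpa1 and Rpa2 passed in no pair.

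In gap filling, 6 genes differed between EN and MD, 4 higher and 2 lower in EN. Lists of dividing cells are given beside them. In EN minus MD, 23 of 26 DNA replication genes had a positive difference (3 passed, 11.5%) and 22 of 25 mitosis genes (5 passed, 20%). Of all genes, 30.2% passed in that pair. In MD minus ED, 24 of 26 DNA replication genes (6 passed, 23.1%) and 25 of 25 mitosis genes (4 passed, 16%) had a negative one. Of all genes, 23% passed there. In the least squares fits, 7732 of all 15719 genes had a positive difference in EN minus MD. In MD minus ED, 8032 of them had a negative one. The summed levels of the lists overlapped between groups. For DNA replication they were at 359 to 481 CPM in EN, 298 to 453 CPM in MD and 332 to 500 CPM in ED. For mitosis they were at 253 to 521 CPM in EN, 244 to 406 CPM in MD and 231 to 752 CPM in ED. The highest mitosis sums of EN and ED were those of EN ZT0 and ED ZT24, the libraries high in hair follicle markers. The part of these lists in the gap filling differences was not tested. Pcna was at 51.1, 68.6 and 76.5 CPM in EN, 36, 50.9 and 66 CPM in MD and 47.8, 62.2 and 80.4 CPM in ED. EN was above MD by 0.41 ± 0.11 (adjusted p of 0.00559) and MD below ED by -0.35 ± 0.11 (adjusted p of 0.019), each at 8 of 8 times. In MD minus ED the difference was -0.23 (adjusted p of 0.127) without MD ZT16 and -0.30 (adjusted p of 0.0809) without ED ZT12.

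Of the 5 clamp loader genes, Rfc2, Rfc3 and Rfc4 were also higher in EN than in MD. Rfc2 was at 16.1, 18 and 19.6 CPM in EN, 13.9, 15.1 and 16.5 CPM in MD and 14.6, 17.4 and 21.5 CPM in ED. EN minus MD was 0.22 ± 0.064 (adjusted p of 0.0206) and MD minus ED -0.24 ± 0.064 (adjusted p of 0.0175), but MD minus ED was 0.01 in intron reads (adjusted p of 0.969). Rfc4 averaged 6.11 ± 1.01 CPM in EN, 4.6 ± 0.887 CPM in MD and 5.18 ± 1.12 CPM in ED, with EN minus MD at 0.47 ± 0.15 (adjusted p of 0.0174, and 0.102 without MD ZT16). Rfc3 averaged 9.45 ± 1.54 CPM in EN, 7.95 ± 1.18 CPM in MD and 8.05 ± 1.88 CPM in ED, with EN minus MD at 0.28 ± 0.096 (adjusted p of 0.0424).

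Of these loader calls, that of Rfc3 was lost in 10 of 24 fits, with adjusted p up to 0.216 without MD ZT16. The other losses were without MD ZT0, MD ZT4, MD ZT8, MD ZT24, EN ZT8, EN ZT12, EN ZT20, EN ZT24 or EN ZT28. The EN minus MD call of Rfc2 was lost without MD ZT12 (0.0607), EN ZT12 (0.0903) or EN ZT20 (0.0537), and its MD minus ED call without MD ZT12 (0.0519) or ED ZT16 (0.0688). Rfc5, another loader subunit, did not pass, with EN minus MD at 0.34 ± 0.14 (adjusted p of 0.0634) and MD minus ED at -0.34 ± 0.14 (adjusted p of 0.0719). With sampling time as a replicate block it passed in EN minus MD (0.0124) and in MD minus ED (0.0173). DESeq2 called it in EN minus MD (0.0495). Rfc1, Pold1, Pole and Lig1 passed in no pair.

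The ligase III pair went the other way. Xrcc1 was at 21.1, 24.5 and 25.2 CPM in EN, 24, 26 and 29.4 CPM in MD and 20.8, 23 and 25.9 CPM in ED. MD was above ED by 0.22 ± 0.038 (adjusted p of 0.00559) and EN below MD, with EN minus MD at -0.19 ± 0.038 (adjusted p of 0.00931), each at 7 of 8 times. Both calls stayed in each of the 24 fits. Lig3, its ligase, was at 64.7, 69.1 and 73.1 CPM in EN, 71.8, 77.6 and 81.8 CPM in MD and 61.8, 74.1 and 78.5 CPM in ED. EN minus MD was -0.18 ± 0.045 (adjusted p of 0.012), at 8 of 8 times, and the adjusted p was 0.0517 without EN ZT12. Without the second day, neither Xrcc1 nor Lig3 passed in EN minus MD.

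**Figure D4:**
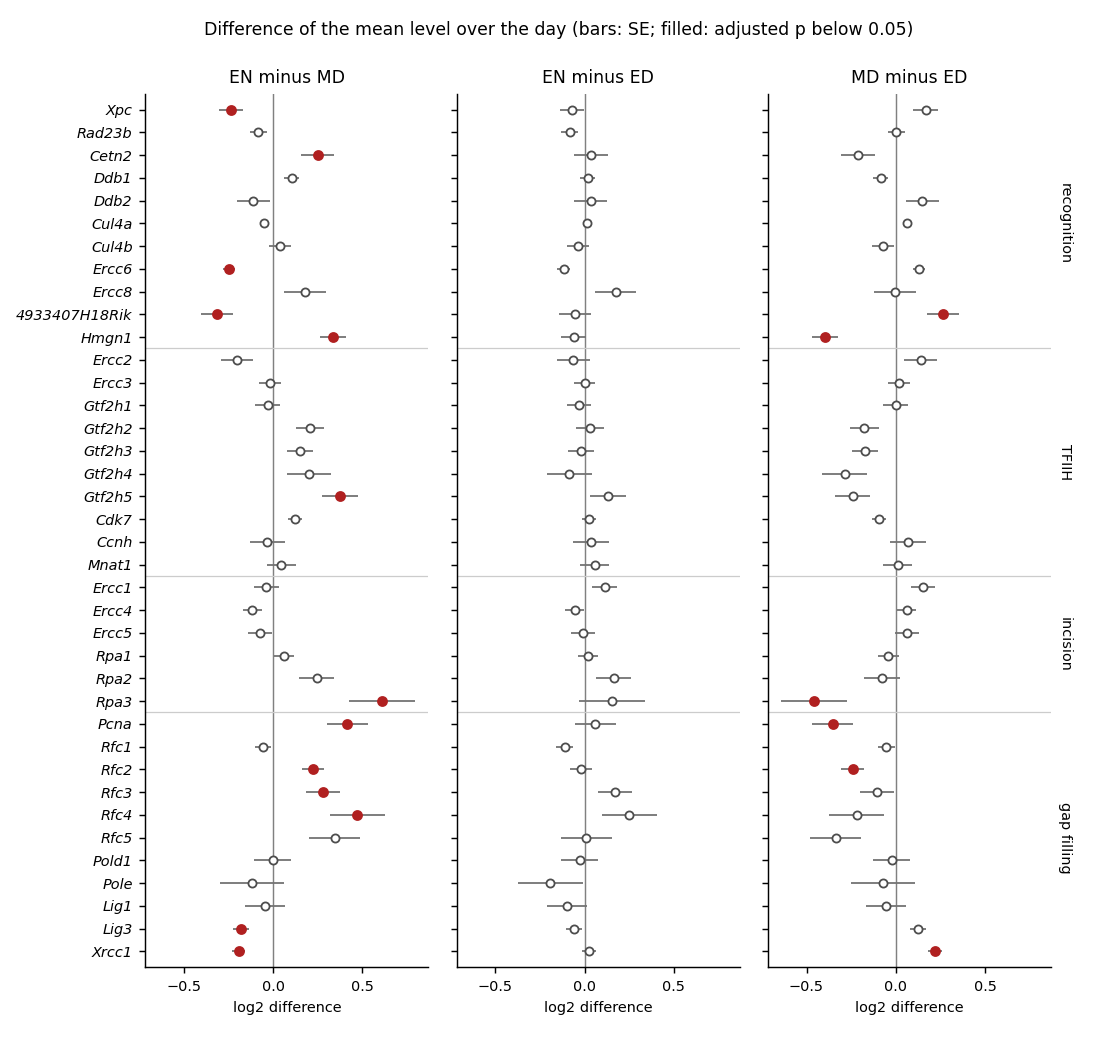
Log2 difference of the mean level over the day (horizontal) with its SE, for the 38 repair genes (vertical, by step) in EN minus MD, EN minus ED and MD minus ED. Filled points passed at an adjusted p below 0.05 (13, 0 and 6 genes), and in EN minus ED the points lie between -0.19 and 0.25.

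The sign of these differences went with transcript length. Over the 38 genes, Spearman's rho between the log2 difference and the length of the longest annotated transcript was -0.638 in EN minus MD, -0.628 in EN minus ED and 0.443 in MD minus ED. Over 15023 genes with a length it was -0.427, -0.338 and 0.318 in these pairs. The genes share the same 24 libraries, so these values describe the libraries.

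Of the 14 repair genes with the shortest transcripts (up to 2562 bases, the bottom of 3 equal classes of all genes), 6 were higher and 1 lower in EN than in MD, with a median log2 difference of 0.22. Of the 11 in the top class (4216 bases or more), 1 was higher and 4 lower in EN, with a median of -0.12. Rpa3, with the widest difference, has the shortest transcript (682 bases), and Ercc6, with the smallest p among those lower in EN, has the longest (8423 bases).

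The deposited RPKM table was made with cqn, a method that adjusts for length and GC content, per its file name. On log2 (RPKM + 0.1) with limma, 4 of 38 repair genes passed in EN minus MD, 2 higher (Ddb1 and Cdk7) and 2 lower (Ercc1 and Xrcc1) in EN, against 16.9% of 22049 genes. Of these, Xrcc1 was also among the 13 called in counts. In MD minus ED, 6 passed, which were Ddb1, Hmgn1, Cdk7, Ercc1, Rfc2 and Xrcc1, against 17.1% of all genes, and Hmgn1, Rfc2 and Xrcc1 were among the 6 called in counts. In EN minus ED, 0 passed. With RPKM, rho over the 38 genes was -0.252 in EN minus MD, -0.407 in EN minus ED and 0.0248 in MD minus ED, and over 15023 genes it was -0.0369, -0.0643 and 0.0158 in these pairs.

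Intron reads, tested in this way after the exon results were seen, gave 5 calls in EN minus MD (Xpc, Ddb1, Ercc8, Hmgn1 and Gtf2h1), against 14.7% of all genes. They gave 5 in MD minus ED (Xpc, Cul4a, Ercc8, 4933407H18Rik and Hmgn1), against 15.5% of all genes. In EN minus ED they gave 0. Hmgn1 in MD minus ED was the 1 difference of the 19 that passed under each alternative tried, and Xrcc1 in MD minus ED missed with intron reads alone (0.18, adjusted p of 0.0743).

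**Figure D5:**
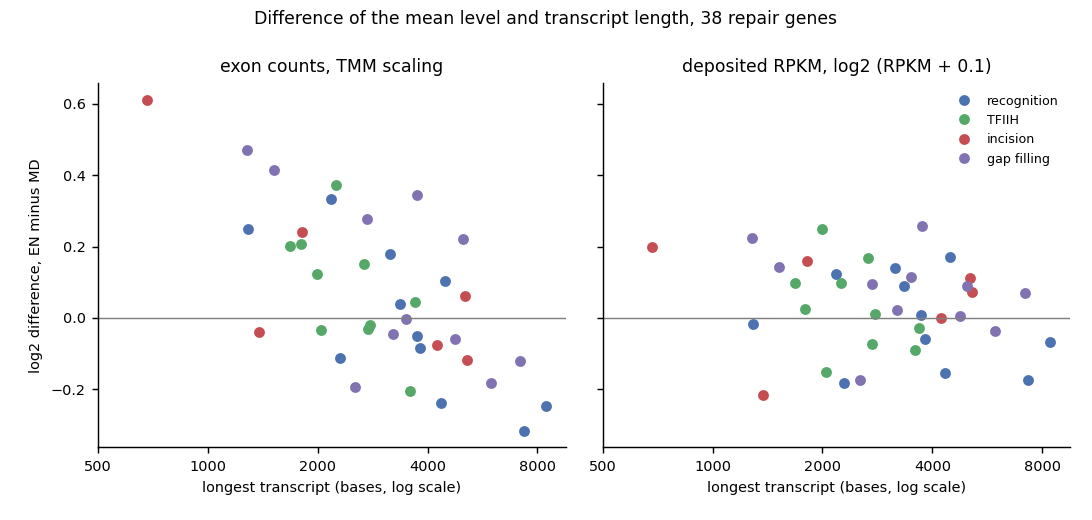
Log2 difference of the mean level, EN minus MD (vertical), against the length of the longest transcript in bases on a log scale (horizontal), for the 38 repair genes coloured by step. In exon counts the points fall with length (rho of -0.638), and in the deposited RPKM they do so less (rho of -0.252).

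A further 29 genes of the pathway outside these 38, such as Usp7 and the remaining polymerase subunits, were counted in the same tests. In EN minus MD, 7 of 29 passed (24.1%, against 30.2% of all genes), 5 higher and 2 lower in EN. In MD minus ED 4 passed (13.8%, against 23% of all genes), 1 higher and 3 lower in MD. In EN minus ED 0 passed. Rbx1, the RING subunit of the CUL4 ligase, averaged 49.9 CPM in EN, 38.2 CPM in MD and 46 CPM in ED, with EN minus MD at 0.41 ± 0.077 (adjusted p of 0.000493). In RPKM, EN and MD overlapped for this gene, with 24.7 to 29.02 in EN and 18.46 to 26.03 in MD. The RPKM calls given above cover the 38 genes and not these 29. Pole4, a small subunit of polymerase epsilon, averaged 22.3 CPM in EN, 16.5 CPM in MD and 23.3 CPM in ED, with MD minus ED at -0.53 ± 0.11 (adjusted p of 0.00113).

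Of the others by smallest p, Polr2a, the large subunit of RNA polymerase II, was higher in MD than in ED by 0.24 ± 0.049 (adjusted p of 0.00335). Cops5, of the COP9 signalosome, was higher in EN than in MD by 0.27 ± 0.067 (adjusted p of 0.00516). Ppie, a splicing factor subunit, was higher in EN than in MD by 0.42 ± 0.11 (adjusted p of 0.00522). Elof1, an elongation factor of transcription-coupled repair, was higher in EN than in MD by 0.32 ± 0.091 (adjusted p of 0.00612). Along ZT, Elof1 was the 1 of 29 with a shared rhythm, and after food 1 of 29, Pold2, was higher than before food. The other rhythm tests in exon reads called 0 of 29.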

How the data were processed

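RNA of whole back skin was read in 24 libraries, 8 per feeding group. The authors' deposited table gives unscaled counts of reads for each gene model, in rows for exon, intron and antisense reads, per the file headers. The deposited second table holds RPKM values made by the authors with cqn, per the file name. The submitters' processing notes name TopHat2, SAMtools, HOMER and the mm10 build, with no versions. The counting program: not given in the sources used here. A total RNA kit that keeps strand was used, per the labels' protocols. All 24 columns matched 1 library each.

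Of rows sharing a symbol, that with the highest total was kept (2114 rows left out). Genes were filtered with filterByExpr (minimum count 10, minimum total 15), which left 15719, and scaled by TMM. edgeR 4.0.16 in R 4.3.3 fitted a mean, cosine and sine of 24 h per group (15 residual degrees of freedom), shared curves (19) or the meal contrast (14), and quasi-likelihood tests were adjusted by Benjamini-Hochberg over all genes with a threshold of 0.05. Amplitudes, differences and SEs are least squares fits on log2 CPM with a prior count of 2. There was 1 library per group and time, so the error is the departure from the fitted curves. Nothing says whether animals were shared between pools, and p-values reflect the spread between pools, which may be technical. Libraries of different groups share a sampling time and no replicate number of the labels. Sampling time as a block was an alternative, beside RLE scaling, DESeq2 1.42.0, no filter, limma 3.58.1 on log2 RPKM, left-out libraries, each group fitted alone, and clock time as a curve in the meal contrast. The code was tested on simulated data. Ciart was matched under its older symbol Gm129, and lengths and positions come from GENCODE on GRCm38, the sequence of mm10, by symbol.

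Every repair gene is named. Full statistics go to those with an adjusted p below 0.05 in any test and, in each step, to the 2 with the smallest p over the 3 shared rhythm tests. Pathway genes outside the list are named, at most 6, by smallest p among those called. Pold2 was named after its value was seen. Members, lists and tests were chosen with earlier results of these data known.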

Additional observations from a re-analysis of the deposited data

Results flagged for a closer look

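In each gene and feeding group, the lowest or highest of the 8 libraries was compared with the rest by Dixon's criterion, and 6 of 114 groups (5.26%) held a library that stood apart. Chance gives about 1 in 20.

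Rfc3 had 5.58 CPM in the MD ZT16 library, below 7.66 to 9.43 CPM in the other MD libraries. Rfc4 had 3.96 CPM in the EN ZT0 library, below 5.45 to 7.01 CPM in the other EN libraries. Gtf2h3 had 16.5 CPM in the EN ZT4 library, below 19.6 to 22.5 CPM in the other EN libraries. Ccnh had 11.1 CPM in the MD ZT20 library, below 13.5 to 15.7 CPM in the other MD libraries. On the high side, Ercc6 had 46.4 CPM in the EN ZT4 library, above 40.4 to 42.6 CPM in the other EN libraries. Xpc had 34.1 CPM in the ED ZT0 library, above 24.6 to 28.6 CPM in the other ED libraries.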

How the results depend on the processing

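Counts of repair genes called moved under these alternatives. With DESeq2 they were 2 for the rhythm in ED, 6 along the skin clock, 1 after food, and 1 for intron reads along ZT. Of these DESeq2 counts, that along the skin clock alone is given above beside the calls over all genes. On log2 RPKM with limma, 4 were called in EN minus MD with a pseudocount of 0.1 and 4 with 1, and 1 each for intron reads along the skin clock. Intron reads in place of exon reads, chosen after seeing the data, gave 5 in EN minus MD. Without the second day, 0 were called along the skin clock and 1 in intron reads. A curve for clock time gave 1 after food. Leaving out each library gave 3 to 9 in MD minus ED (3 without MD ZT16), 9 to 14 in EN minus MD, 0 to 1 along ZT, 0 to 4 along the skin clock, 0 to 1 after food, 0 to 1 for intron reads along ZT and 2 to 3 along the skin clock. It gave 0 throughout for the 3 rhythms, the 3 rhythm differences, EN minus ED and both food axes. Calls over all genes moved too. In MD minus ED they ran from 1981 (without MD ZT16) to 3943 (without ED ZT28). In EN minus MD they ran from 3167 (without MD ZT16) to 4996 (without EN ZT4). Signs reversed for Rfc2 in MD minus ED with intron reads (0.00648), for Cetn2 in EN minus MD with RPKM (-0.0167 and -0.0152) and intron reads (-0.289), and for Ercc6 in EN minus MD with intron reads (0.0474). With sampling time as a replicate block, counts were 7 in MD minus ED and 14 in EN minus MD. They were 0 in EN minus ED and 0 for each rhythm difference. The block counts are not set beside the calls over all genes in that fit. None of the 19 single-gene calls in mean level was lost with the block, while Rfc5 was gained in both pairs with MD. The cause of these moves was not tested. Without a filter the fit used a trended dispersion. Low counts limit Rpa3, Rfc4 and Ercc8.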
